A study of Rattus norvegicus with 42 samples.

Results

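Heat shock proteins and DnaJ chaperones were followed in rat whole blood 24 h after experimental stroke. The members were the genes whose symbol, as the only one given for a probe set, started with Hspa, Hspb, Hspd, Hspe, Hsph, Hsp90 or Dnaj, and each gene was represented by the probe set with the highest mean over all arrays. This gave 64 genes from 98 of the 31042 probe sets tested. They comprised 11 Hsp70 genes, 1 Hsp110 gene, 2 Hsp90 genes, 7 small heat shock proteins, the 2 mitochondrial chaperonin genes, 4 DnaJ A, 12 DnaJ B and 23 DnaJ C genes. The prefix rule also took in Hspbp1 and Hspbap1, which are named after the Hsp70 and the small heat shock protein that they bind. A further 6 probe sets carried several symbols including one of the family and were not used, so that Hspa8, Hsp90aa1 and Hspa1b were not analysed here.

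RNA was hybridised to Affymetrix rat genome expression arrays, 1 array for each of 42 male Sprague-Dawley rats of 280 to 350 g, in 7 groups of 6. Naive rats had no procedure before the blood draw. Anesthesia rats received isoflurane and were the controls of the stroke groups, with no sham operation, so that the operation and the arterial occlusion cannot be told apart. Occlusion of the middle cerebral artery (MCAO) by an intraluminal suture was released after 2 h (reperfused-MCAO) or left in place (permanent-MCAO). Tissue plasminogen activator (tPA), a thrombolytic protease, was injected intraperitoneally at 3.3 mg/kg at 3 h in the groups reperfused-MCAO + tPA, permanent-MCAO + tPA and tPA without MCAO. All rats were under isoflurane when blood was taken at 24 h, and the sources do not state if the group tPA without MCAO was also anesthetised earlier, as the anesthesia group was. The values were log2 signals after GC-RMA, on which the levels of different probe sets cannot be set against each other. In whole blood, fewer cells of a type and less RNA per cell cannot be told apart.

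Heat shock proteins are molecular chaperones. Hsp70 proteins bind unfolded stretches of other proteins, DnaJ proteins bring them their clients and start ATP hydrolysis, and Hsp110 proteins and other exchange factors release the nucleotide so that the cycle can begin again. The cytosolic stress-inducible set is switched on by heat shock factor 1 at heat shock elements, the endoplasmic reticulum set by the unfolded protein response at ER stress elements, and mitochondria hold their own Hsp70 (Hspa9) and the Hsp60 and Hsp10 chaperonin (Hspd1 and Hspe1). Blood leukocytes, platelets and reticulocytes all contain these transcripts.

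Promoters are shown for 4 members because they carry these elements beside the genes on which the results below turn. RefSeq promoter windows of the GRCr8 build, from 250 bases before to 50 bases after each annotated start, were matched for 53 of the 64 members. Each is printed 5′ to 3′ on the gene's own strand, and the capitals mark matches to heat shock elements in Hsph1, Dnajb1 and Hspd1 and to the ER stress element in Hspa5. A heat shock element was searched as GAA, any 2 bases and TTC (a pair of units, the same on both strands), and as GAA, 2 bases, TTC, 2 bases and GAA or its reverse complement (3 units, which always contain a pair). The ER stress element was searched on both strands as CCAAT, any 9 bases and CCACG. The windows are chr12:10427118-10427417 on the plus strand for Hsph1, chr19:41431092-41431391 on the minus strand for Dnajb1, chr9:64083988-64084287 on the minus strand for Hspd1 and chr3:38452766-38453065 on the plus strand for Hspa5.
Hsph1: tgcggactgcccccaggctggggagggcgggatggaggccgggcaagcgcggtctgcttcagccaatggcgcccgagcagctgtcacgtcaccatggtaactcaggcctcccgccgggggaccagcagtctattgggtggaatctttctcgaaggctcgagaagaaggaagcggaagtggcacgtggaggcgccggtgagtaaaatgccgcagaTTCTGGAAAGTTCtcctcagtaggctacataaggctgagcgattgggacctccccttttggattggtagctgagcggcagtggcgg
Dnajb1: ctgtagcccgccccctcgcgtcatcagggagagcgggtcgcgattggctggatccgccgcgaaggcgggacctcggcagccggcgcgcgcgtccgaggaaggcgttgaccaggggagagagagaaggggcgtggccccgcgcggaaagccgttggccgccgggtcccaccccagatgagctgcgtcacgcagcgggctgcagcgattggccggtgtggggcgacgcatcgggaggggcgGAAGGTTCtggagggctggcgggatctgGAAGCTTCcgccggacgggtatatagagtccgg
Hspd1: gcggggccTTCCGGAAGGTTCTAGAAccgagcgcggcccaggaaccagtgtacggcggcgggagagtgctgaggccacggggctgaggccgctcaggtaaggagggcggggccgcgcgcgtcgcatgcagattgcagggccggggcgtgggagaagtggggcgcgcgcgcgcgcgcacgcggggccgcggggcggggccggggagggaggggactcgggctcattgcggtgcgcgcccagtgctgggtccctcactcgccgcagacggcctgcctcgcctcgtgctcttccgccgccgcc
Hspa5: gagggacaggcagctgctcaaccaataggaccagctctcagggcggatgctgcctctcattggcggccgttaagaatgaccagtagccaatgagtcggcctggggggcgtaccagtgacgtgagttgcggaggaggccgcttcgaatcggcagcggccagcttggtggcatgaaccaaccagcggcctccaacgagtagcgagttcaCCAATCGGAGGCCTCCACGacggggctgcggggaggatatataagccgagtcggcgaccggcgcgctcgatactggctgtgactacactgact

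The element of 3 units was found in 4 of the 53 windows (Dnaja1, Hspd1, Hspe1 and Hsph1), against 0.798% of all 33469 windows. The pair of units was found in 11 of 53, against 8.59% of all. The ER stress element was found in 3 of 53 (Hspa5, Hsp90b1 and Dnajc3), against 22 of all 33469 windows, or 0.0657%. Hspd1 and Hspe1 lie head to head on opposite strands and their windows share 211 bases, so that the matches printed for Hspd1 are also those of Hspe1. A match is a description of letters and not evidence that a factor binds there.

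Of the 64 members, 42 had a mean of at least log2 4 and 22 were dimmer, among them 6 of the 7 small heat shock proteins. Hspb1, the best known of these, lay between 2.04 and 2.24 on every array. Array medians ran from 3.05 to 3.26. The hybridization controls, bacterial transcripts added in fixed amounts, averaged 11.16 ± 0.75 (SD, n = 6) in tPA without MCAO against 12.22 ± 0.22 in anesthesia, and 11.94 to 12.17 in the other groups. That group also stood apart in blood cell markers, given beside its results.

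The effect of stroke was first taken over all 42 arrays, as the MCAO term averaged over both levels of tPA. Its control side was anesthesia and tPA without MCAO. An anesthesia term in the model set the naive rats apart, so that they counted only towards the spread. Members were called at an unadjusted limma p of 0.05 or less and a fold of at least 1.2. In this comparison 8 of 64 members were higher and 11 lower, against 6.02% and 9.39% of all probe sets. With the Benjamini-Hochberg adjusted p of 0.05 or less, 6 were higher and 6 lower, against 3.28% and 4.58% of all. Of the 42 members with a mean of at least log2 4, 18 were called, against 31.1% of the 13232 probe sets with such a mean, which is given as a description with no test. The median difference of the 64 members was -0.0036 on the log2 scale, and that of all probe sets was 0.0025.

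**Figure D1:**
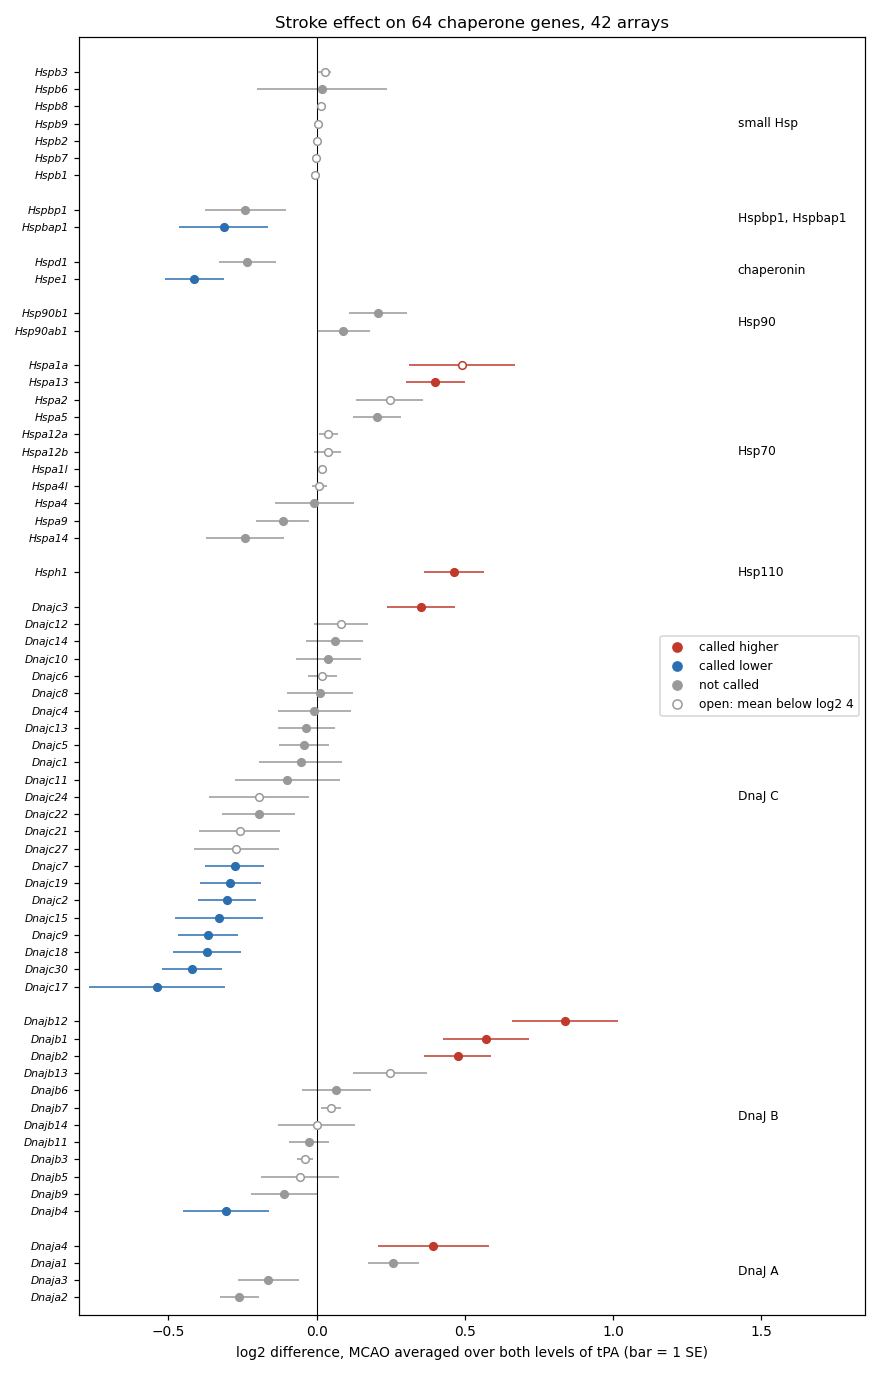
Log2 difference of each of the 64 members for the MCAO term averaged over both levels of tPA (x axis), grouped by family, with bars of 1 SE. Red and blue mark members called higher and lower, grey those not called, and open circles members with a mean below log2 4. Calls are spread over the families, with Hspa1a, Hsph1, Dnajb1, Dnajb2 and Dnajb12 among the higher ones and 8 DnaJ C genes among the lower ones.

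The inducible cytosolic chaperones Dnajb1, Hsph1 and Hspa1a rose with stroke. Dnajb1 is the DnaJ partner of cytosolic Hsp70, and its log2 signal (lowest, median and highest of 6 arrays) was 8.04, 8.20 and 8.56 in naive, 7.72, 8.39 and 8.44 in anesthesia and 7.64, 8.08 and 8.53 in tPA without MCAO. With MCAO it was 8.15, 8.67 and 9.21 in reperfused-MCAO, 8.17, 8.43 and 9.18 in reperfused-MCAO + tPA, 8.14, 9.02 and 9.20 in permanent-MCAO and 7.83, 9.17 and 9.51 in permanent-MCAO + tPA. Each MCAO group overlapped the controls at its low end and reached above all of them at its high end. Averaged over tPA, Dnajb1 was higher with stroke by 0.57 ± 0.14 (log2, SE; limma, adjusted p = 0.011). Dnajb1 was among the genes that the study listed as tPA-regulated from these same samples. Its choice as a named gene was therefore not independent of these data. A further Dnajb1 probe set, with a mean of 6.90, differed by 1.14 ± 0.23 (limma, adjusted p = 0.0021), but it was also lower in tPA without MCAO than in anesthesia, at -1.04 ± 0.19.

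Hsph1 encodes the Hsp110 exchange factor of cytosolic Hsp70. Its lowest, median and highest log2 signals were 8.15, 8.55 and 8.73 in anesthesia, 8.63, 8.78 and 9.19 in reperfused-MCAO and 8.21, 8.95 and 9.37 for permanent-MCAO. With tPA they were 8.64, 8.83 and 9.17 in reperfused-MCAO and 8.56, 9.16 and 9.66 for permanent-MCAO, and in tPA without MCAO 8.35, 8.44 and 8.56. The arrays of tPA without MCAO therefore did not overlap with those of reperfused-MCAO + tPA, and overlapped those of permanent-MCAO + tPA only at the edge. Naive rats, however, ran from 8.39 to 8.96 and overlapped each of the MCAO groups. The stroke term was 0.46 ± 0.10 (limma, adjusted p = 0.0034), and the dimmer Hsph1 probe set differed by 0.39 ± 0.16.

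Hspa1a, the stress-inducible Hsp70, had the most uneven pattern. It was near the floor in every rat without MCAO, with log2 signals from 2.65 to 2.98 in the 18 arrays of the naive, anesthesia and tPA without MCAO groups. Lowest, median and highest signals were 2.67, 2.79 and 3.39 in reperfused-MCAO, 2.71, 2.85 and 4.29 in reperfused-MCAO + tPA, 2.69, 3.33 and 4.03 in permanent-MCAO and 2.69, 2.92 and 5.01 in permanent-MCAO + tPA. The medians of 3 of the 4 MCAO groups lay within the range of the rats without MCAO, and single rats rose well above it. In all, 12 of the 24 MCAO arrays exceeded the highest array without MCAO, 2 in reperfused-MCAO, 2 in reperfused-MCAO + tPA, 5 in permanent-MCAO and 3 in permanent-MCAO + tPA. By the same count Dnajb1 exceeded its highest array without MCAO in 14 MCAO arrays and Hsph1 in 11. Of the 12 arrays high in Hspa1a, 11 were among the 14 high in Dnajb1, and 8 were among the 11 high in Hsph1. The stroke term of Hspa1a was 0.49 ± 0.18 and passed the unadjusted threshold (0.0094) but not the adjusted one (limma, adjusted p = 0.085). The nearly identical gene Hspa1b may share its signal.

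**Figure D2:**
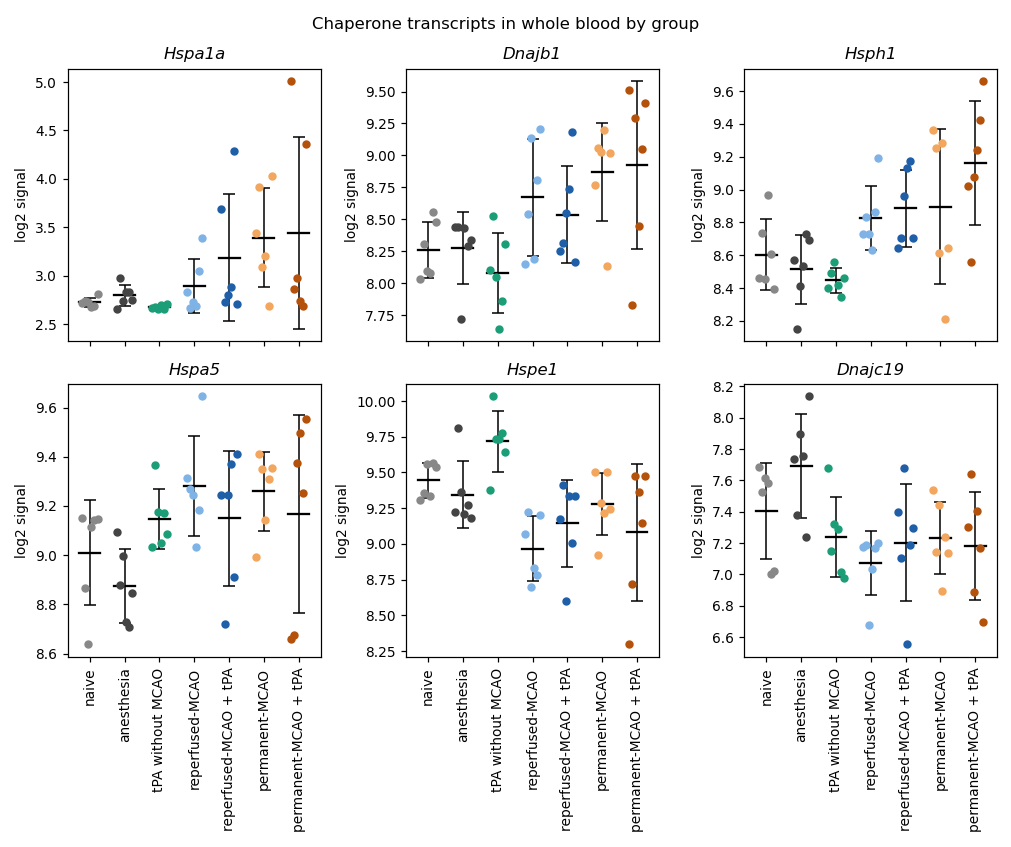
Log2 signal of 6 chaperone genes in each of the 42 rats (points), with group mean (line) and SD (bar). Hspa1a lay between 2.65 and 2.98 in every rat without MCAO and reached 5.01 with permanent-MCAO + tPA, while Hspe1 and Dnajc19 lay lower in reperfused-MCAO than in anesthesia.

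The other members of the cytosolic stress-inducible list moved less. The list held 10 measured members, of which 4 were called higher (Dnajb1, Hsph1, Hspa1a and Dnaja4) and 1 lower (Dnajb4). The calls of Dnaja4 and Dnajb4 were lost in 15 and 11 of the 42 fits that left out 1 array, and those of the other 3 in none. Dnaja1, a DnaJ A partner of Hsp70, differed by 0.26 ± 0.09 (limma, adjusted p = 0.057) and missed the fold threshold, while its dimmer probe set was called higher at 0.30 ± 0.08 (adjusted p = 0.011). Hsp90ab1, the constitutive cytosolic Hsp90, differed by 0.09 ± 0.09 on its brighter probe set and by 0.31 ± 0.12 on the other. Hspa4, an Hsp110 relative, differed by -0.01 ± 0.13. Hspb1 and Hspa4l were near the floor, with differences of -0.01 ± 0.01 and 0.01 ± 0.02.

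The averaged stroke term includes the group tPA without MCAO on its control side, and this mattered for some members. Dnaja4, a DnaJ A gene, and Dnajb12, a DnaJ of the ER membrane, were called higher at 0.39 ± 0.19 and 0.84 ± 0.18, but they differed by -0.19 and -0.07 when that group was left out and untreated MCAO of both kinds was set against anesthesia. In that comparison of 36 arrays, 13 members were called, 6 higher and 7 lower, against 10.6% of all probe sets. No share was taken there of the probe sets with a mean of at least log2 4. Of the 13 called members, 6 were also called, in the same direction, in the averaged term. They were Dnajb1 (0.49 ± 0.21), Hsph1 (0.35 ± 0.15) and Hspa13 (0.54 ± 0.15), which were higher, and Dnajc9, Dnajc18 and Dnajc19, which were lower. Hspa1a differed by 0.35 ± 0.27 there and was not called. Hspa13 and Dnajc19 passed the adjusted threshold (limma, adjusted p = 0.036 and 0.040).

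In single rats, Dnajb1 was correlated with Hsph1 by r but not by rho after adjustment, and its relation with Hspa1a did not pass by either. Deviations from the group mean were correlated over the 42 arrays between Dnajb1 and 14 other members, with 100000 permutations within groups. Dnajb1 and Hsph1 had r = 0.52 (permutation p = 0.0026, adjusted over the 14 relations 0.036) and rho = 0.39 (permutation p = 0.018, adjusted 0.12). Without the 2 arrays farthest from the median of Dnajb1 the r was 0.32. Dnajb1 and Hspa1a had r = 0.54 (permutation p = 0.0097, adjusted 0.068) and rho = 0.43 (permutation p = 0.014, adjusted 0.12), and r = 0.48 without the 2 farthest arrays. None of the other 12 relations passed the adjusted threshold. No batch is given for these arrays, and with each array centred on its median the r between Dnajb1 and Hsph1 was 0.50 (permutation, adjusted p = 0.073).

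**Figure D3:**
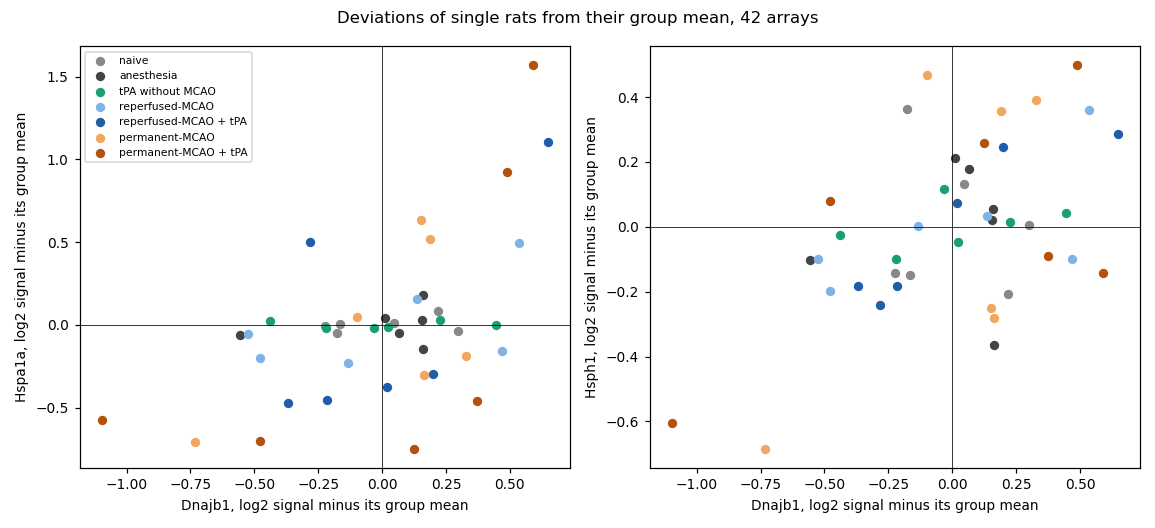
Deviation of Dnajb1 from its group mean (x axis) against that of Hspa1a (left) and Hsph1 (right), in log2 units, 1 point for each of the 42 rats and 1 colour for each group. The largest deviations in both directions belong to MCAO rats, and the rats without MCAO lie close to 0 for Hspa1a.

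Of the listed chaperones of the endoplasmic reticulum, Hspa5 (BiP) and Hspa13 were called higher in reperfused-MCAO than in anesthesia. Hspa5, the Hsp70 of the ER lumen, had lowest, median and highest log2 signals of 8.71, 8.86 and 9.09 in anesthesia, 9.03, 9.26 and 9.65 in reperfused-MCAO and 8.99, 9.33 and 9.41 for permanent-MCAO. Both MCAO groups overlapped anesthesia only at their lowest arrays. Against anesthesia Hspa5 was higher by 0.41 ± 0.10 in reperfused-MCAO (limma p = 0.0019, exact permutation p = 0.0043) and by 0.38 ± 0.09 in permanent-MCAO (limma p = 0.001, exact permutation p = 0.0065). Neither passed adjustment over all probe sets (limma, adjusted p = 0.067 and 0.12). The comparisons share the anesthesia arrays, which held the lowest group mean for this gene. Naive rats lay at 8.64, 9.13 and 9.15, and tPA without MCAO at 9.03, 9.13 and 9.37, higher than anesthesia by 0.27 ± 0.08.

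Hspa13, a microsomal Hsp70 relative, had signals of 5.26, 5.74 and 6.11 in anesthesia and 5.88, 6.36 and 6.44 in reperfused-MCAO, where it was higher by 0.58 ± 0.16 (limma p = 0.0046, exact permutation p = 0.0065, limma adjusted p = 0.11). The groups overlapped, and the call was lost in 5 of the 12 fits that left out 1 array (anesthesia 3 or 5, reperfused-MCAO 1, 3 or 5). Anesthesia held the lowest group mean for Hspa13 as well, and naive rats lay at 5.49, 6.05 and 6.09, overlapping reperfused-MCAO. The averaged stroke term was 0.40 ± 0.10 (limma, adjusted p = 0.0097). Dnajc3, an ER DnaJ that also inhibits the kinase PERK, was higher by 0.35 ± 0.11 (adjusted p = 0.049). Without the group tPA without MCAO, Dnajc3 differed by 0.22 ± 0.17 and was not called. Hsp90b1, the Hsp90 of the ER, differed by 0.21 ± 0.10 and Hspa5 by 0.20 ± 0.08 in the averaged stroke term, both under the fold threshold. Of the 9 measured members of the ER list, 2 were higher and 1, Dnajc18, lower. The list did not hold Dnajb12, a DnaJ of the ER membrane. It was called higher in that term, but not without the group tPA without MCAO. The 3 members whose promoters hold the ER stress element had differences of 0.20 to 0.35, of which that of Dnajc3 was called, while the 4 with the heat shock element of 3 units differed in sign (Hsph1 0.46, Dnaja1 0.26, Hspd1 -0.23 and Hspe1 -0.41).

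Among 15 other ER folding genes, 4 were higher and 1 lower in the averaged stroke term. Atf4, a transcription factor of the integrated stress response, was higher by 0.57 and its target Ddit3 by 0.51 (limma, adjusted p = 0.0021 and 0.022). Calr and Xbp1 were also called higher. Eif2ak3, which encodes PERK, was lower, at -0.52 (adjusted p = 0.0058). P4hb, a protein disulfide isomerase, was higher in reperfused-MCAO by 0.42 (adjusted p = 0.043) and in permanent-MCAO by 0.34 (adjusted p = 0.18).

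Of 9 measured mitochondrial chaperones, 4 (Hspe1, Dnajc19, Dnajc30 and Dnajc15) were called lower and none higher in the averaged stroke term, and this rested in part on the group tPA without MCAO. Without that group Dnajc19 was the only one of the 4 still called, Dnajc11 was called lower, and Hspa9, Dnajc4, Dnaja3 and Dnajc15 had positive differences of 0.26, 0.25, 0.14 and 0.063, none of them called. Hspe1, the Hsp10 lid of the chaperonin, had lowest, median and highest log2 signals of 9.18, 9.25 and 9.81 in anesthesia, 9.38, 9.74 and 10.03 in tPA without MCAO, 8.70, 8.95 and 9.22 in reperfused-MCAO and 8.92, 9.27 and 9.50 for permanent-MCAO. Reperfused-MCAO overlapped anesthesia only at its 2 highest arrays and permanent-MCAO overlapped it widely. The averaged term was -0.41 ± 0.10 (limma, adjusted p = 0.0077). Hspd1, the Hsp60 ring whose promoter window overlaps that of Hspe1, differed by -0.23 ± 0.10 and was below the fold threshold. Without the group tPA without MCAO, Hspe1 differed by -0.22 ± 0.14 and was not called.

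Dnajc19, part of the motor that imports proteins into mitochondria, had signals of 7.24, 7.75 and 8.14 in anesthesia, 6.68, 7.17 and 7.20 in reperfused-MCAO and 6.90, 7.19 and 7.54 for permanent-MCAO. Anesthesia and reperfused-MCAO did not overlap. Reperfused-MCAO was lower, at -0.62 ± 0.15 (limma p = 0.002, adjusted p = 0.069; exact permutation p = 0.0022, the smallest that 6 against 6 arrays allow). Permanent-MCAO differed by -0.46 ± 0.16. The anesthesia arrays held the highest group mean for this gene, and naive rats lay at 7.00, 7.55 and 7.69, overlapping both MCAO groups. Dnajc30 was lower in the averaged term, at -0.42 ± 0.10 (limma, adjusted p = 0.0078), as was Dnajc15, at -0.33 ± 0.15, which did not pass adjustment. Without the group tPA without MCAO, Dnajc30 differed by -0.27 ± 0.14 and Dnajc15 by 0.063 ± 0.22. Hspa9, the mitochondrial Hsp70, differed by -0.11 ± 0.09 in the averaged term and by 0.26 ± 0.13 without that group, and Dnaja3, its DnaJ partner, by -0.16 ± 0.10 and 0.14 ± 0.15.

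Other DnaJ C genes were called lower in the averaged term. Dnajc9, which handles histones, had a stroke term of -0.37 ± 0.10 and Dnajc18 one of -0.37 ± 0.12 (limma, adjusted p = 0.018 and 0.040). Dnajc2, a ribosome-associated J protein, was at -0.30 ± 0.10 (adjusted p = 0.048). Dnajc7 and the splicing-associated Dnajc17 were called lower at -0.28 and -0.54 without passing adjustment. Without the group tPA without MCAO, Dnajc2, Dnajc7 and Dnajc17 differed by -0.15, -0.13 and -0.080 and were not called. On the other side, Dnajb2 was higher at 0.48 ± 0.11 (adjusted p = 0.0076), and differed by 0.08 and 0.17 from anesthesia in reperfused-MCAO and permanent-MCAO.

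Blood cell markers moved in the same term. All 11 measured T cell markers were lower and 8 of 9 platelet markers were higher, while 6 of 10 neutrophil markers were higher and 1 lower, 5 of 12 erythroid markers were higher and 2 of 5 B cell markers were lower. The log2 of the summed T cell signal ran from 13.9 to 14.5 in anesthesia and from 13.1 to 15.0 over the 4 MCAO groups, and that of the platelet markers from 14.1 to 14.7 and from 13.9 to 15.2. For neutrophils these ranges were 13.7 to 14.6 and 13.4 to 15.9. No marker was at 0. The averaged stroke term includes tPA without MCAO on its control side. In the 12-array comparisons with anesthesia, at the threshold of 0.01, no T cell or B cell marker was called for either kind of MCAO. All 11 T cell differences were negative in both. Platelet markers called higher were 1 in reperfused-MCAO and 0 in permanent-MCAO, and neutrophil markers 4 in each. Of the 12 erythroid differences, 0 and 2 were positive. The part of these cells in the chaperone differences was not tested. With the hybridization control mean as a covariate, 15 members were called, against 9.45% of all probe sets. Of these 15 members, 11 were among the 19 (Dnajb1, Hsph1, Hspa1a, Hspa13, Hspe1, Dnajb12, Dnajc2, Dnajc9, Dnajc18, Dnajc19 and Dnajc30).

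Each kind of MCAO was also set against anesthesia in its own 12 arrays, with calls at an unadjusted p of 0.01 or less. In reperfused-MCAO 3 members were higher and 3 lower, against 4.09% and 1.91% of all probe sets and 13% of the brighter ones called in either direction. In permanent-MCAO 2 were higher and 2 lower, against 1.77% and 1.01% of all and 6.07% of the brighter ones. The called members of reperfused-MCAO were Hspa5, Hspa13 and Dnajc5, higher, and Dnajb6, Dnajc19 and Dnajc8, lower. Those of permanent-MCAO were Hspa5 and Dnajb1, higher, and Dnajc30 and Dnajc8, lower. The difference between both kinds of MCAO was not tested.

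Dnajb6, a DnaJ that keeps proteins from aggregating, was the one member past adjustment in either of these comparisons. Its lowest, median and highest signals were 12.35, 12.68 and 12.76 in anesthesia and 11.95, 12.10 and 12.35 in reperfused-MCAO, so that the groups overlapped only at this edge. It was lower at -0.48 ± 0.09 (limma, adjusted p = 0.022; exact permutation p = 0.0043), and differed by -0.39 ± 0.16 in permanent-MCAO. Dnajc8, a J protein found with the splicing machinery, had signals of 11.33, 11.90 and 12.13 in anesthesia against 11.04, 11.29 and 11.47 in reperfused-MCAO and 11.19, 11.30 and 11.66 for permanent-MCAO. It was lower at -0.55 ± 0.14 and -0.48 ± 0.14 (limma, adjusted p = 0.077 and 0.29), with each MCAO group overlapping anesthesia. Anesthesia held the highest group mean for Dnajc8 as well, and naive rats lay at 11.04, 11.45 and 12.01, overlapping both MCAO groups. The study listed Dnajb6 and Dnajc8 as tPA-regulated from these samples.

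Dnajc5 (cysteine string protein), a vesicle DnaJ, was higher in reperfused-MCAO by 0.44 ± 0.10 (limma, adjusted p = 0.051), with signals of 8.88, 9.15 and 9.32 against 8.44, 8.68 and 8.92 in anesthesia. Its second probe set lay between 6.43 and 6.85 in reperfused-MCAO, against 5.81 to 6.33 in anesthesia and 6.20 to 6.73 in naive rats. On the brighter probe set naive rats lay at 8.75, 8.94 and 9.33, a range that held every reperfused-MCAO array. Anesthesia held the lowest group mean on both of these probe sets. The Dnajb1 call in permanent-MCAO, 0.59 ± 0.19 (limma p = 0.0086, exact permutation p = 0.013, limma adjusted p = 0.33), was lost in 11 of the 12 fits that left out 1 array, all but the one without permanent-MCAO 5. In permanent-MCAO, Dnajc30 was lost in 6 of 12 fits (without anesthesia 1, 2 or 5, or permanent-MCAO 2, 4 or 5) and Dnajc8 in 7 of 12 (without anesthesia 3, 5 or 6, or permanent-MCAO 1, 3, 5 or 6), whereas Hspa5 was called in every one of the 12 fits in each comparison. With the hybridization control mean as a covariate, Dnajb6 and Dnajc19 were the only 2 of the 6 calls kept in reperfused-MCAO, where Hspa5 differed by 0.34 and was not called, and Hspa5, Dnajc8 and Dnajc30 were kept in permanent-MCAO. In reperfused-MCAO 4 of 12 erythroid markers were lower and 4 of 10 neutrophil markers higher, and in permanent-MCAO 4 of 10 neutrophil markers were higher. Their part was not tested.

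The 2 members with the largest log2 differences from anesthesia in any 2-group comparison, Dnajb12 and Dnaja4, were both in tPA without MCAO. Against anesthesia 9 of 64 members were higher and 6 lower, against 9.15% and 4.59% of all probe sets, and 14 of the 42 brighter members were called against 28.7% of the brighter probe sets. With the adjusted p 9 were higher and 7 lower, against 7.56% and 4.95% of all. Dnajb12 had lowest, median and highest signals of 7.12, 8.14 and 8.79 in tPA without MCAO against 9.22, 9.83 and 10.40 in anesthesia. The groups did not overlap, and the difference was -1.76 ± 0.30, 3.39-fold lower (limma, adjusted p = 0.0093; exact permutation p = 0.0022). The other Dnajb12 probe set, with a mean of 5.05, was lower at -0.53 ± 0.14 (limma, adjusted p = 0.033). No 2-group comparison set tPA without MCAO against naive rats. On the brighter Dnajb12 probe set naive rats lay at 8.57, 9.46 and 10.09, overlapping tPA without MCAO.

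Dnajb6, Dnajc8 and Dnajc11 were also lower in tPA without MCAO with no overlap, at -0.84 ± 0.19, -0.87 ± 0.20 and -1.04 ± 0.18 (limma, adjusted p = 0.020, 0.021 and 0.010). Dnajb6 lay at 10.97, 11.84 and 12.31 in that group and Dnajc8 at 10.21, 11.03 and 11.25. Naive rats reached down to 11.91 for Dnajb6, 11.04 for Dnajc8 and 5.23 for Dnajc11, where tPA without MCAO reached up to 5.88. Naive therefore overlapped tPA without MCAO for each, and anesthesia held the highest group mean. Against anesthesia, Dnaja4 was lower at -1.11 ± 0.28 and Dnajc1, an ER-membrane DnaJ, at -0.60 ± 0.17, both with overlap. Among the co-chaperones outside the family, Hscb, which serves iron-sulfur cluster assembly, was lower at -1.94 and Bag6 at -1.50 (limma, adjusted p = 0.0028 and 0.018).

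**Figure D4:**
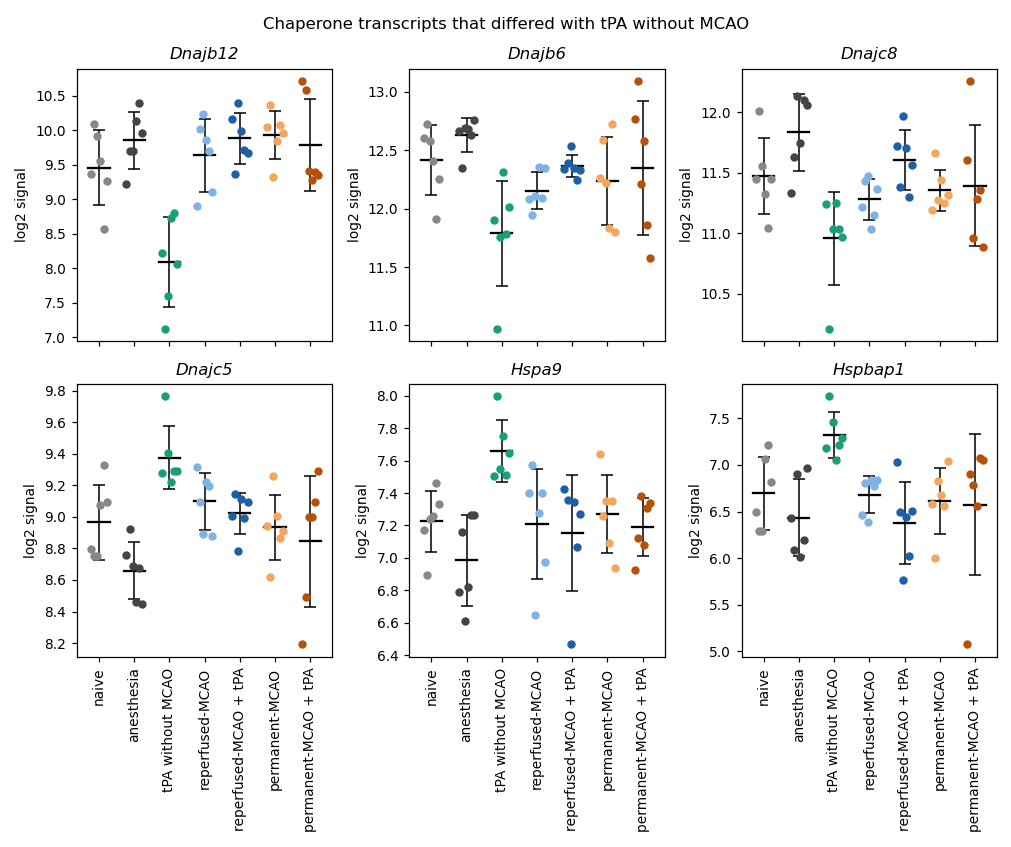
Log2 signal of 6 chaperone genes that differed between tPA without MCAO and anesthesia, in each of the 42 rats (points), with group mean (line) and SD (bar). Dnajb12, Dnajb6 and Dnajc8 were lower and Dnajc5, Hspa9 and Hspbap1 higher in tPA without MCAO than in anesthesia, with no overlap between these 2 groups. Naive rats overlapped tPA without MCAO for each of these genes but Hspa9.

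Other members were higher in the same rats. Dnajc5 lay at 9.22, 9.29 and 9.77 in tPA without MCAO, above every anesthesia array, and was higher by 0.72 ± 0.11 (limma, adjusted p = 0.0068). Its second probe set was higher by 0.63 ± 0.11, and the dimmest one differed by -0.23 ± 0.21. Hspa9 lay at 7.50, 7.60 and 7.996 against 6.61, 6.99 and 7.26 in anesthesia, with no overlap, and was higher by 0.68 ± 0.13 (adjusted p = 0.014). Hspbap1 and Dnajc15, which restrains respiratory complex I, were higher by 0.89 ± 0.19 and 0.61 ± 0.11, also with no overlap. Naive rats reached 9.33 for Dnajc5, 8.08 for Dnajc15 and 7.21 for Hspbap1, whose lowest signal in tPA without MCAO was 7.05. They overlapped tPA without MCAO for these genes, while for Hspa9 they reached 7.46 and did not. Dnaja2, Dnaja3, Dnajc7, Dnajc24 and Hspa5 were called higher by 0.27 to 0.73, and the calls of Hspa5, Dnaja3 and Dnaja2 were lost in 6, 7 and 3 of the 12 fits that left out 1 array. Of 12 measured CCT and prefoldin genes, which fold actin and tubulin, 5 were higher and 1 lower.

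Every erythroid marker in this comparison that was called moved down. Of 12, 8 were lower and none higher, and the log2 of their summed signal ran from 14.6 to 15.7 in tPA without MCAO against 15.9 to 16.2 in anesthesia. Of 11 T cell markers, 10 were higher, with summed signals of 14.8 to 15.2 against 13.9 to 14.5, and 5 of 9 platelet markers were lower. The hybridization controls were lower in this group as well. With their mean as a covariate, 5 members were called, against 2.59% of all probe sets, and 3 of them were among the 15 (Dnajb12, Dnajc5 and Dnajc15). Hybridization signal, cell composition and tPA cannot be told apart in this group.

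The tPA by stroke interaction compared the tPA difference with MCAO to that without MCAO. Here 7 members were higher and 10 lower, against 6.62% and 14.4% of all probe sets and 40.6% of the brighter ones called in either direction. The interaction was 1.81 ± 0.36 for Dnajb12, 1.06 ± 0.22 for Dnajc8 and 1.00 ± 0.23 for Dnajb6 (limma, adjusted p = 0.0033, 0.0048 and 0.0083). It was -0.80 ± 0.17 for Dnajc5, -0.74 ± 0.18 for Hspa9 and -1.06 ± 0.30 for Hspbap1 (adjusted p = 0.0048, 0.010 and 0.022). It was -0.60 for Dnaja3 and -0.51 for Dnajc4, which the study had listed as tPA-regulated, and which did not pass adjustment. These members had opposite signs in the comparison of tPA without MCAO against anesthesia, with which the interaction shares its arrays. In the interaction 11 of 12 erythroid and 4 of 9 platelet markers were higher, 7 of 11 T cell and 4 of 10 neutrophil markers were lower, and no B cell marker was called. With the hybridization control mean as a covariate 7 members were called, against 6.15% of all probe sets, of which 5 were among the 17 (Dnajb12, Dnajc5, Dnajc8, Dnajc10 and Hspa9). The part of these cells was not tested.

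Averaged over stroke, tPA gave 5 members higher and 7 lower, against 6.91% and 5.05% of all probe sets. Of the 42 brighter members 11 were called, against 24% of the brighter probe sets. Hspa9 (0.30 ± 0.09) and Dnajc5 (0.32 ± 0.08) were higher and Dnajb12 (-0.86 ± 0.18) was lower with an adjusted p under the threshold (limma, adjusted p = 0.044, 0.026 and 0.0096). When the group tPA without MCAO was left out, so that tPA was compared within the MCAO rats, 1 member was called. The share of all probe sets called in that fit was not taken. With the hybridization control mean as a covariate 1 member was called as well, against 1.62% of all probe sets. That member was none of the 12. For tPA averaged over stroke, 10 of 12 erythroid and 2 of 9 platelet markers were lower and 10 of 11 T cell markers higher, while no neutrophil or B cell marker was called, and their part was not tested.

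In rats with MCAO no member was called for tPA. In reperfused-MCAO 0 of 64 members passed in limma, against 0.722% of all probe sets, and 4 had an unadjusted p under 0.05. In permanent-MCAO 0 of 64 passed, against 0.322%, and 2 had an unadjusted p under 0.05. Dnajb12 differed by 0.25 in the first and by -0.15 in the second, Dnajb6 by 0.21 and 0.11, and Dnajc5 by -0.08 and -0.09. The difference between both tPA effects was called for 0 members, against 0.296% of all probe sets, and 1 had an unadjusted p under 0.05. In simulated data sized as the 12-array comparison of reperfused-MCAO with anesthesia, planted differences of 0.5 were recovered for 30% of probe sets. Those of 1 were recovered for 85%, so that differences of this size could be missed. The differences were planted only in probe sets with a mean of at least log2 4. Noise was independent between probe sets, with 1 SD for each over all groups. Dimmer members, and groups of wider spread such as permanent-MCAO + tPA, were not represented.

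Between anesthesia and naive rats 2 members were called, both lower in anesthesia, against 0.541% of all probe sets lower. They were Dnajc15, at -0.53 ± 0.16, and Dnaja3, at -0.34 ± 0.11, with exact permutation p = 0.013 and 0.015. Dnajc15 lay at 6.69, 7.15 and 7.32 in anesthesia and at 7.15, 7.66 and 8.08 in naive, with overlap. Neither passed adjustment (limma, adjusted p = 0.94 for both), and the calls were lost in 7 and 9 of the 12 fits that left out 1 array, which for Dnajc15 were those without anesthesia 3, 5 or 6, or naive 1, 3, 5 or 6.

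Among 32 co-chaperones measured beside the family, 4 were higher and 3 lower in the averaged stroke term. Fkbp5, an Hsp90 co-chaperone that responds to glucocorticoids, was higher by 0.62, and St13, which binds Hsp70, by 0.42 (limma, adjusted p = 0.006 and 0.0065). In reperfused-MCAO Fkbp5 was higher by 0.99 (adjusted p = 0.054). Of the 12 CCT and prefoldin genes, 2 were lower in the averaged stroke term, Cct7 at -0.32 and Cct6a at -0.27.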

How the data were processed

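Per the labels, blood was drawn at 24 h, and the authors deposited 1 table of log2 signals, made with GC-RMA in Partek. It holds 31042 probe sets and 57 control probe sets, which were set aside. Probe sets were named from the platform annotation, updated through gene identifiers (20826 with 1 symbol, 436 with several, 9780 with none).

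Differences were fitted to these log2 values with limma 3.58.1 in R 4.3.3. Pairs of groups used 12 arrays, with calls at an unadjusted p of 0.01 or less. The tPA, stroke and interaction terms used 42 arrays, with an anesthesia term (every group but naive) and calls at 0.05 or less. Both required a fold of at least 1.2. Exact permutation tests were two-sided over 924 divisions. P-values measure the spread between arrays, each of 1 rat, whose number limits the precision. The fits were tested on simulated data. Figures were drawn in matplotlib 3.10.9.

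Members, gene lists and tests were chosen with earlier results of these data known. Named genes were the cytosolic stress-inducible members, Hspa5, Hspa9, Hsp90b1, Hspd1 and Hspe1. The called members with the smallest p (up to 5 in each direction for each comparison) were named as well. So were the members in the study's own lists of tPA-regulated probe sets, and up to 4 called genes of each co-chaperone list. Other probe sets of a named gene, and Dnajc7, Dnajc17 and Dnajb2, are given where a result turns on them.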

Additional observations from a re-analysis of the deposited data

Results flagged for a closer look

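In 25 of 266 groups of 6 arrays tested over the named members, 1 array stood apart from the other 5 by a share of the group's range above Dixon's critical value. Chance flags about 1 in 20 groups. In anesthesia, the control of most comparisons, Dnajb1 was low in rat 3 (7.72 against 8.29 to 8.44), Dnajb2 low in rat 1 (11.5), Dnajb6 low in rat 2 (12.3), Dnajc30 high in rat 2 (8.14) and Hspe1 high in rat 2 (9.81 against 9.18 to 9.36). In tPA without MCAO, rat 2 was high for Dnajc5 (9.77) and low for Dnajc8 (10.2). In permanent-MCAO + tPA, rat 1 was low for Dnajc18 (3.70) and Hspbap1 (5.07 against 6.55 to 7.08). In permanent-MCAO, rat 3 was low for Dnajb2 (12.1) and Dnajc10 (6.68). In reperfused-MCAO, Dnajc19 was low in rat 3 (6.68) and Hspa13 low in rat 4 (5.88). In naive, rat 2 was high for Dnajc9 (8.24) and low for Hspa13 (5.49). In reperfused-MCAO Dnaja1 was high in rat 6 (9.38), and in reperfused-MCAO + tPA Hsp90ab1 was low in rat 3 (10.2 against 10.9 to 11.1) and Hsp90b1 low in rat 5 (8.003). Hspa4 was high in anesthesia rat 1 (8.54). The remaining cases were probe sets near the floor, Hspa4l in naive 5 (2.65), tPA without MCAO 3 (2.66), reperfused-MCAO + tPA 6 (2.77) and permanent-MCAO + tPA 1 (2.84), and Hspb1 in naive 3 (2.11) and anesthesia 4 (2.24).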

How the results depend on the processing

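The number of members called in the averaged stroke term was 19. It was 12 with tPA without MCAO coded as not anesthetised and 1 at a fold of at least 1.5. For the interaction, 17 became 7 with the hybridization control covariate and 9 with that coding. For tPA averaged, 12 became 1 with the covariate, 3 with that coding, 1 at the larger fold and 1 without the group tPA without MCAO, a comparison added after seeing the data. For tPA without MCAO, 15 became 5 with the covariate. For reperfused-MCAO, 6 became 1 at the larger fold. For permanent-MCAO, 4 became 1 at the larger fold and 2 with the replicate block. For anesthesia against naive, 2 became 1 with quantile normalization, intensity trend or the ordinary linear model, and 0 with the replicate block, the covariate, a mean per group or the larger fold. For tPA in reperfused-MCAO, 0 became 1 with array weights, the replicate block or a mean per group, and for tPA in permanent-MCAO 1 with the covariate or a mean per group. The cause of these shifts was not tested.

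Signs turned for some members. Without the group tPA without MCAO, the averaged tPA difference was 0.059 for Dnaja4, 0.048 for Dnajb12, 0.16 for Dnajb6, -0.083 for Dnajc5, 0.18 for Dnajc8, -0.067 for Hspa9 and -0.17 for Hspbap1, and the stroke difference -0.19 for Dnaja4, -0.067 for Dnajb12, 0.063 for Dnajc15 and 0.22 for Hspbap1, which had been called. Members not called in the averaged stroke term turned as well, among them Hspa9 (0.26), Dnajc4 (0.25) and Dnaja3 (0.14). With the covariate, Dnajb2 was 0.046 for tPA and -0.11 for the interaction. With the probe set of largest SD, Dnajc5 was -0.23 in tPA without MCAO, -0.12 for tPA and 0.21 for the interaction, and Dnajc10 was 0.044 for the interaction.

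Leaving out 1 array gave 5 to 7 members in reperfused-MCAO, 2 to 6 in permanent-MCAO (2 without anesthesia 6 or permanent-MCAO 4), 0 to 2 for anesthesia against naive, 10 to 17 in tPA without MCAO, 0 to 1 for tPA in reperfused-MCAO, 0 to 2 for tPA in permanent-MCAO, 10 to 13 for tPA averaged, 16 to 24 for stroke averaged and 14 to 19 for the interaction. With array centring, the co-variation of Dnajb1 with Hsph1 had r = 0.50 and a permutation adjusted p of 0.073.

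Same-numbered arrays do not come from the same animals, and 13 of 36 pairs correlated over 0.1 in their deviations, so the numbers were not taken as pairing the samples. With the replicate block, stroke averaged gave 18 members, the interaction 15, tPA averaged 12, tPA without MCAO 13 and reperfused-MCAO 6.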
